A study of Mus musculus with 9 samples.

Results

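The clustered histone genes of the mouse were followed here in colon cells from mice labelled vill (+) or vill (-), in RNA, open chromatin and Cdx2 binding. Members were the rows of the authors' deposited gene table whose symbol is H1f, H2ac, H2bc, H3c or H4c followed by a number, 39 of 17511 genes. By type they comprised 5 genes of the linker histone H1, 10 of H2A, 12 of H2B, 5 of H3 and 7 of H4. By the RefSeq spans of GRCm38.p6, 32 members lay on chromosome 13 and 5 on chromosome 3, each within 200 kb of another member. The remaining pair, H1f0 on chromosome 15 and H1f10 on chromosome 6, lay in no cluster, so the name clustered histone genes fits 37 of the 39. RefSeq lists 68 genes with such symbols, of which 38 were in the table. H2bc24, the remaining member, is listed there under another symbol. Genes missing from the table were not analysed here, and the lowest member mean was 3.45 normalized counts.

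All libraries came from large intestinal cells enriched with EDTA from fresh colon, and every strain label carries Cdx1-/- and Cdx2f/f. Libraries labelled DKO add vill (+) and those labelled Wt add vill (-), so the animals called Wt are also Cdx1-/- by label. RNA-seq and ATAC-seq had 2 libraries per group, from mice treated with tamoxifen for 6 days, and Cdx2 ChIP-seq had 1 library labelled Wt and untreated. No label gives sex or age, says what drives recombination, or ties replicates to different mice, and the p-values therefore reflect the spread among these libraries alone, possibly a technical one. The RNA libraries held 16403301 to 25494309 estimated reads. Cdx2 itself was not called, with -0.27 (standard error 0.21, adjusted p = 0.301) on the log2 scale in the authors' deposited table. Cdx1 was lower, with -1.06 (standard error 0.23, adjusted p = 2.08e-05) in the authors' deposited table, although every strain label carries its deletion. Whole-gene values do not show whether an exon is missing, so they do not check the labels, and DKO and Wt below stand for the libraries so labelled. Nothing used here pairs the transcript IDs of the library files with genes. Gene values are therefore the mean normalized count over the 4 libraries, the log2 fold change (DKO over Wt) and its SE from the authors' deposited table, and no value per library is given for a gene.

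Histones package DNA into nucleosomes: H2A, H2B, H3 and H4 form the core, and H1 binds the linker DNA where it enters and leaves. Most of their genes are small and without introns, sit side by side in clusters, and are transcribed in S phase under the coactivator Npat. Their mRNAs end in a stem loop bound by Slbp in place of a poly(A) tail, although some members also give polyadenylated transcripts in cells that have left the cycle. H1f0 and H1f10 are replication-independent linker histones, and H1f0 is known for its accumulation in differentiated cells. The labels do not say whether RNA was selected by poly(A), which bears on how well stem-loop mRNAs were captured. Most core histone proteins of a family are nearly alike and several genes have near-identical copies, among which reads could be split.

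Promoters are shown for 6 members on which the results turn, as the bases upstream of the RefSeq start in GRCm38.p6, 5' to 3' on the strand of the gene. For the first 4, capitals mark the letters CCAAT (as in the NF-Y box), TATAAA (as in the TATA box) and ATTTGCAT (the octamer of Oct factors). Letters were matched exactly, on either strand and at any distance from the start within the window. A match is therefore not shown to be a working box, and variant forms are left unmarked. H1f2 (chr13:23738557-23738806, plus strand) was the clustered member with the highest count, H1f0 (chr15:79027962-79028211, plus strand) rose, and H4c9 (chr13:22041363-22041612, minus strand) had the largest fall among H4 genes. For H2ac6 (chr13:23683960-23684198, minus strand) the 239 bases between its start and the span of H2bc4 are given.
H1f2: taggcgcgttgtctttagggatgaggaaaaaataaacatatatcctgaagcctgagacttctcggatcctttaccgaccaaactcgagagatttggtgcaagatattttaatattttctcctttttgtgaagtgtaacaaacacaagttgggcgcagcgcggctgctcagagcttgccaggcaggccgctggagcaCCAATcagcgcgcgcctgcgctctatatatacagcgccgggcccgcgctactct
H1f0: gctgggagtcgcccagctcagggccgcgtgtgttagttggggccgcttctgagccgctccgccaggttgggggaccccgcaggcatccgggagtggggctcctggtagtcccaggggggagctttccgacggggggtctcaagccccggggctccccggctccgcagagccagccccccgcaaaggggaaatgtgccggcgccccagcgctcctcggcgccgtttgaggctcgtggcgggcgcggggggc
H4c9: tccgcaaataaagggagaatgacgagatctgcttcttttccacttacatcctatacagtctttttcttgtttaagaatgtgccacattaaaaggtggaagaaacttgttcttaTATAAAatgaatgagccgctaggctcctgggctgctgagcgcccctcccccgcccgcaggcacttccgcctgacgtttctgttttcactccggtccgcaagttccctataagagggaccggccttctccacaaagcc
H2ac6: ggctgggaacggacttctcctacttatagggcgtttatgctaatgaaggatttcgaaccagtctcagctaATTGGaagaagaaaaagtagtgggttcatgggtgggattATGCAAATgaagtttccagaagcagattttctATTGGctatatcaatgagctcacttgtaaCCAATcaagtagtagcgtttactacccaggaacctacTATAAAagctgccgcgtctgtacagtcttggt
H2ac6 held 3 matches to CCAAT, 1 to TATAAA and 1 to ATTTGCAT, H1f2 held 1 CCAAT, H4c9 held 1 TATAAA, and H1f0 held none of these letters. The next 2 windows belong to H2ac18 (chr3:96245247-96245496, plus strand) and H2ac19 (chr3:96240375-96240624, minus strand), copies that lie back to back on chromosome 3. Here capitals mark their longest shared run, 169 bases, which starts 209 bases before the start of H2ac18 and 169 before that of H2ac19.
H2ac18: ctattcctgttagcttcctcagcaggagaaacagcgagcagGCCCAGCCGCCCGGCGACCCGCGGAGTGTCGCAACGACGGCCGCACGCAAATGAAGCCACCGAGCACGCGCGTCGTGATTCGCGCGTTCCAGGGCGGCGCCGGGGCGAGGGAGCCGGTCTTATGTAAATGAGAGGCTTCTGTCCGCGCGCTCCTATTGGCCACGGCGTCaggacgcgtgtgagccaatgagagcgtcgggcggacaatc
H2ac19: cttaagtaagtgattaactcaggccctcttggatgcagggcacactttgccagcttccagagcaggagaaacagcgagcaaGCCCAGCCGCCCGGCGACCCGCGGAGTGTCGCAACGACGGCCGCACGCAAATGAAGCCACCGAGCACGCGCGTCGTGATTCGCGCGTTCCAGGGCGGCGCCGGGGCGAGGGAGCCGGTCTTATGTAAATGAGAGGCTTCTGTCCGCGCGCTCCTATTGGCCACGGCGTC

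In RNA, more histone genes were lower than higher in the DKO libraries. Of 39 genes, 12 were lower (30.8%) and 2 higher (5.13%) by the authors' deposited table at an adjusted p under 0.05, where 18.3% and 18.5% of all genes were called lower and higher. Counting calls of at least 2-fold, 9 members were lower and 1 was higher by the authors' deposited table, against 13.2% and 11% of all genes. The median log2 fold change over the members was -0.71 in the authors' deposited table, beside -0.02 over all genes, and 31 of 39 members were below 0 against 50.9% of all genes. At mean normalized counts below 50, 16 of 22 members and 3332 of all 5462 genes were below 0 there, with medians of -0.29 and -0.19. At means of at least 50, 15 of 17 members and 5576 of all 12049 genes were, with medians of -0.98 and 0.07. The higher genes were H2ac19, a near copy of H2ac18, and H1f0, which lies outside the clusters. In bulk RNA, fewer cells of a type and less RNA per cell cannot be told apart.

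**Figure D1:**
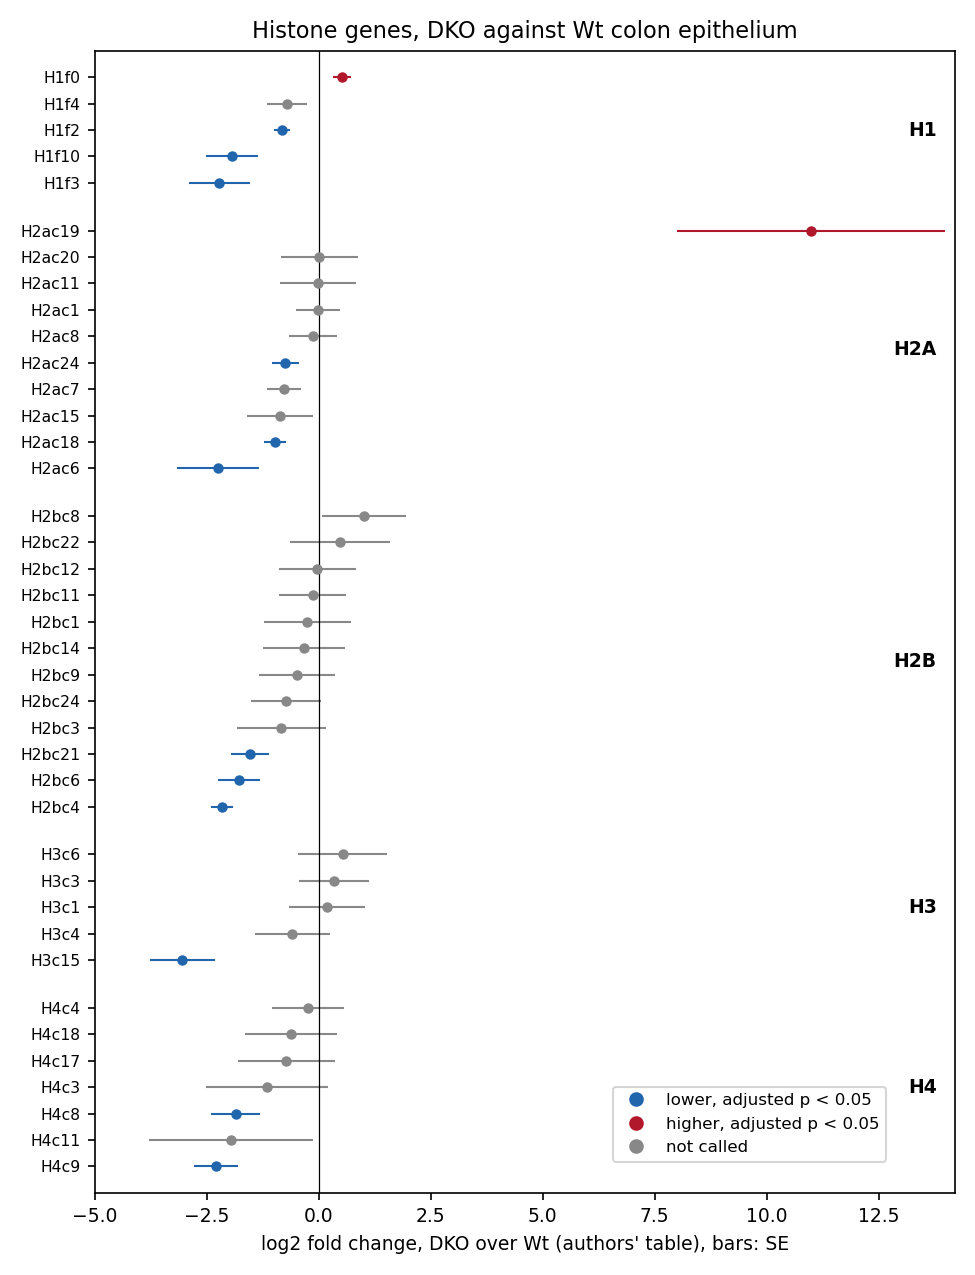
Log2 fold change (DKO over Wt) of each of the 39 histone genes in the authors' deposited table, with bars of 1 SE, grouped by histone type and colored by call. The 12 blue points are lower and the 2 red points, H1f0 and H2ac19, are higher; H2ac19 stands far from the rest with a wide bar.

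Among linker histones, H1f2, the main H1 gene of the chromosome 13 cluster by count, fell by 0.83 on the log2 scale (standard error 0.18, adjusted p = 2.55e-05) on a mean normalized count of 6146 in the authors' deposited table. H1f3 fell by 2.22 (standard error 0.68, adjusted p = 0.000737) and the unclustered H1f10 fell by 1.94 (standard error 0.58, adjusted p = 0.000784) in the authors' deposited table, at means of only 54.8 and 73.9. H1f4 was at -0.71 (standard error 0.45, adjusted p = 0.147) in the authors' deposited table and was not called. H1f0 went the other way: the authors' deposited table gave it a log2 fold change of 0.52 (standard error 0.20, adjusted p = 0.0254) at a mean of 6267 normalized counts. With the fold taken at face value and 2 libraries per group, these values from the authors' deposited table imply 7858 normalized counts of H1f2 in Wt and 4434 in DKO, and 5151 and 7382 of H1f0. Over H1 as a whole, the authors' deposited table called 3 of 5 genes lower and 1 higher, where 18.3% and 18.5% of all genes were.

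Of the 10 H2A genes, 3 had a lower call and 1 a higher call by the authors' deposited table, where 18.3% and 18.5% of all genes did. H2ac18 and H2ac24, core H2A genes of the chromosome 3 and chromosome 13 clusters, had means of 1286 and 1624 normalized counts, and fell by 0.98 (standard error 0.24, adjusted p = 0.000186) and fell by 0.75 (standard error 0.30, adjusted p = 0.0246) in the authors' deposited table. H2ac24 shares a run of 233 bases of its promoter window with H2bc23, and H2ac18 shares one with H2ac19. These runs concern promoters, and the likeness of transcripts was not measured. Whether RNA reads of these genes were split among copies is therefore unknown, and their values are uncertain to that extent. H2ac6 fell by 2.25 (standard error 0.91, adjusted p = 0.00623) in the authors' deposited table at a mean of 24.3. H2ac19 was called higher at a log2 fold change of 10.99 (standard error 3.00, adjusted p = 8.88e-11) and a mean normalized count of 140.4 in the authors' deposited table. That fold implies a Wt level of 0.138 normalized counts, close to none, so the size of the fold is loosely set. H2ac18 and H2ac19 lie 5123 bp apart and share the promoter run shown above, with a shared run of 219 bases over windows reaching past the start. Reads of near-identical copies can be assigned to either, so the opposite directions of this pair are uncertain. Added together, the pair had implied levels of 1706 normalized counts in Wt and 1146 in DKO, 1.49-fold higher in Wt, from the values of the authors' deposited table. The 6 H2A genes without a call ranged from -0.87 (H2ac15) to 0.02 (H2ac20) in the authors' deposited table, with H2ac7 the closest to the threshold at -0.77 (standard error 0.38, adjusted p = 0.0645).

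The smallest p of any member was that of an H2B gene. H2bc4 (chr13:23684199-23692480), a core H2B gene, fell by 2.16 (standard error 0.24, adjusted p = 8.42e-18) on a mean normalized count of 1968 in the authors' deposited table, which makes Wt the higher by 4.46-fold. H2bc6 fell by 1.78 (standard error 0.48, adjusted p = 0.000243) and H2bc21, on chromosome 3, fell by 1.55 (standard error 0.43, adjusted p = 0.000436) in the authors' deposited table, at means of 118 and 120.0. Lower calls thus made up 25% of the H2B genes, beside 18.3% of all genes. The other 9 H2B genes were not called and ranged from -0.84 (H2bc3) to 1.02 (H2bc8) in the authors' deposited table. Their means were low, from 3.45 to 115 normalized counts, and their SEs ran from 0.74 to 1.11.

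For H3, the authors' deposited table called 1 of 5 genes, and for H4, 2 of 7, all lower. These shares, 20% and 28.6%, stand beside 18.3% of all genes, and that of H3 lies near it. H3c15, a copy-bearing H3 gene beside H2ac19 on chromosome 3, had the lowest log2 fold change of any member and fell by 3.05 (standard error 0.72, adjusted p = 1.97e-05) in the authors' deposited table, at a mean of 51.6. The promoter of H3c15 shares a run of 231 bases with that of H3c14. If their transcripts are alike too, which was not measured, the value of H3c15 is uncertain in the same way as that of H2ac19. The 4 other H3 genes, with means of 4.75 to 13.3 normalized counts, ranged from -0.59 to 0.53 in the authors' deposited table. H4c9 fell by 2.29 (standard error 0.49, adjusted p = 4.81e-06) and H4c8 fell by 1.86 (standard error 0.55, adjusted p = 0.000804) in the authors' deposited table. All 7 H4 genes were below 0 in the authors' deposited table, and H4c11 lay just outside the threshold at -1.96 (standard error 1.83, adjusted p = 0.0514).

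Most calls fell on the members with higher counts. Of the 17 members at or above a mean normalized count of 50, 11 were called lower and 2 higher by the authors' deposited table, where 19.5% and 24.7% of all genes at such means were called. Among the 22 below 50, it called 1 lower (H2ac6) and 0 higher, against 15.7% and 4.58% of all such genes. At an unadjusted p under 0.05 there were 2 of 22, H2ac6 and H4c11, against 1544 of all 5462 genes below 50. The median standard error of these 22 members in the authors' deposited table was 0.86, beside 0.85 over all genes below 50, so their precision was that of other genes with such counts. Counts were concentrated: the 5 members with the highest means, H1f0, H1f2, H2bc4, H2ac24 and H2ac18, held 92.3% of the 18743 mean normalized counts of the list. Per kilobase of RefSeq span, H1f2 had 8478 mean normalized counts, H2ac24 3593, H1f0 2733 and H2ac18 2313, while H4c9, the highest H4 gene, had 204. H2bc4, H2bc6, H2bc22 and H2bc24, whose RefSeq spans exceed 3000 bp, were not set on this scale. Summed over the 37 clustered members, the implied level was 16461 normalized counts in Wt and 8344 in DKO, 1.97-fold higher in Wt. Over all 39 members, H1f0 and H1f10 included, it was 21730 in Wt and 15756 in DKO, 1.38-fold higher in Wt. Both sums rest on the values of the authors' deposited table.

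**Figure D2:**
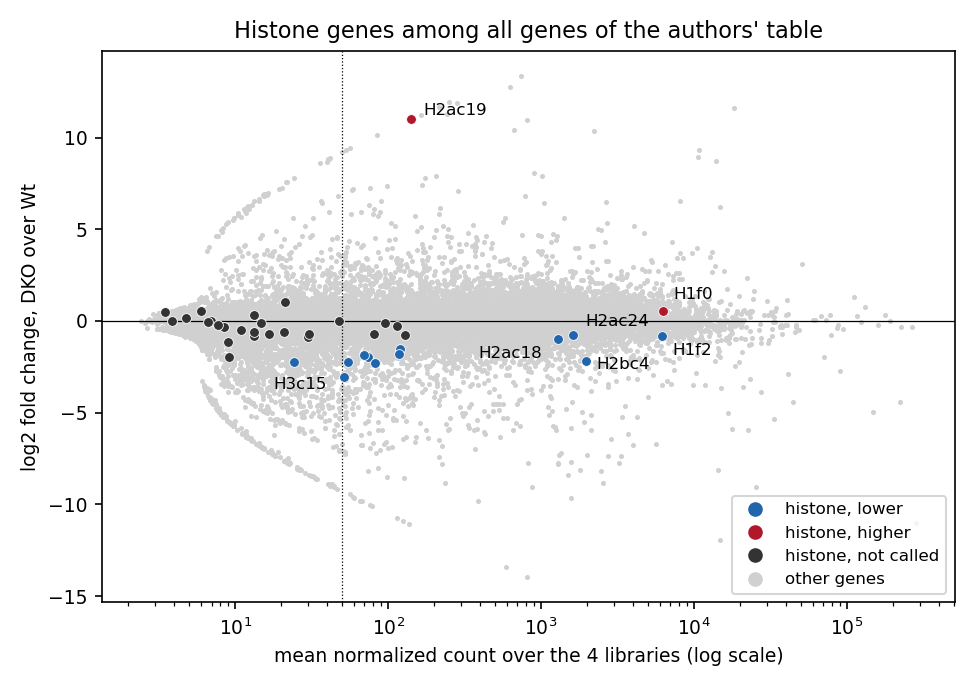
Log2 fold change (DKO over Wt) against the mean normalized count (log axis) for all 17511 genes in the authors' deposited table, grey, with the 39 histone genes colored by call; the dotted line marks a mean of 50. Most called histone genes lie to its right and below 0, and H2ac19 lies far above.

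By RefSeq starts, neighbours that share a promoter region formed 4 divergent pairs, each an H2A and an H2B gene on opposite strands within 1000 bp. In the authors' deposited table H2ac24 and H2bc24, with 267 bases between their starts, were at -0.75 and -0.73, and H2ac11 and H2bc11 were at -0.02 and -0.13. H2ac8 and H2bc8 were at -0.13 (standard error 0.54) and 1.02 (standard error 0.94) in the authors' deposited table, neither of them called. H2ac1 and H2bc1, the testis-type H2A and H2B genes, were at -0.02 and -0.25 in the authors' deposited table, both not called, at means of 48.0 and 115. The differences within these 4 pairs were smaller than the larger SE of each pair, except for H2ac8 and H2bc8. Where a start was missing, spans were compared. H2ac6 and H2bc4, with 239 bases between their spans, were both called lower in the authors' deposited table, at -2.25 and -2.16. H2ac20 and H2bc21, with spans 192 bp apart on chromosome 3, differed in call. In the authors' deposited table H2ac20 was not called, at 0.02 (standard error 0.85), and H2bc21 was lower, at -1.55 (standard error 0.43).

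Open chromatin at histone gene starts was called in the Wt libraries and hardly at all in the DKO libraries. RefSeq gave a start for 36 members; H2bc21, H2bc4 and H3c1 had no entry. An ATAC peak within 500 bp of the start was listed for 21 and 22 of the 36 members in Wt replicates 1 and 2, and for 0 and 2 in DKO replicates 1 and 2. Over the 11809 genes of the table with a start, the shares were 79.9% and 82% in Wt and 26.1% and 43% in DKO, so fewer starts of any kind were listed in DKO. The lists held 48163 and 53943 peaks in Wt and 40101 and 23961 in DKO. The peaks at all gene starts were also weaker there, with a median fold enrichment of 3.95 and 4.10 in DKO against 7.23 and 7.32 in Wt, where the fold is the authors' value over local background. The depth of these libraries is unknown, and the part of this weaker signal in the result was not tested.

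**Figure D3:**
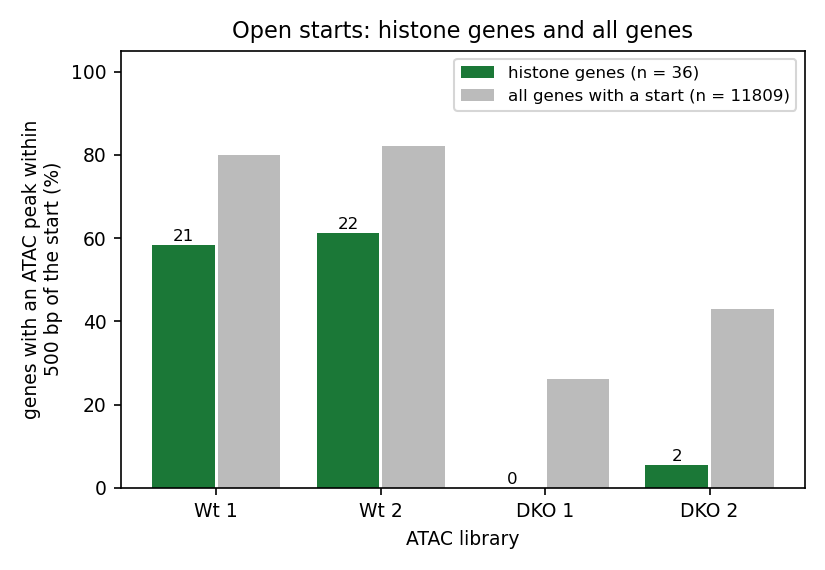
Share of genes with an ATAC peak within 500 bp of the start in each library, for the 36 histone genes with a start (green, number of genes above each bar) and all 11809 genes with a start (grey). Histone bars lie below the grey ones in each library and at 0 and 2 genes in DKO.

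The starts missing from the DKO lists were also counted among the genes open in Wt. Of the 21 members with a peak in both Wt libraries, 19 (90.5%) had none in either DKO library, where 42.7% of the 9272 genes open in both Wt libraries had none (33.6% when counted over all 11809 genes). Among the 6194 genes whose weaker Wt peak lay in the same range of fold enrichment as the members (4.03 to 8.36), the share was 48.6%. The lower of the Wt values had a median of 6.70 over the members and 6.91 over all open genes. Without DKO replicate 2 all 21 members had no DKO peak, beside 68.1% of the 9272 genes open in both Wt libraries, and without DKO replicate 1 it was 19 of 21, beside 47.0% of those genes. No member had a peak in both DKO libraries and neither Wt library, a pattern held by 0.161% of all genes. With 2 libraries against 2, an exact permutation test cannot go below p = 0.333, so no test was run, and members that share a promoter share a peak.

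Of the genes lower in RNA, H1f2 had a promoter peak of 8.14 and 7.40-fold enrichment in Wt replicates 1 and 2 and none in DKO. H4c9 had 7.02 and 6.70, H1f3 5.36 and 6.07, H2bc6 7.19 and 5.09, and H2ac6 5.68 and 8.78 in the Wt libraries, and none of these starts had a DKO peak. The window of H2ac6 also takes in the left end of H2bc4. The 2 starts with a DKO peak, in replicate 2 alone, were H4c8 (4.77 and 6.06 in Wt, 3.96 in DKO) and H1f10 (4.03 and 4.59 in Wt, 3.16 in DKO), both lower in RNA. H1f0, higher in RNA, had Wt peaks of 5.64 and 5.11 and none in DKO. The highest value was that of H2bc12, at 8.16 and 10.78, a gene at a mean of only 6.64 normalized counts and a log2 fold change of -0.03 in the authors' deposited table. Further starts with peaks in both Wt libraries and none in DKO belonged to H2ac7, H2ac8, H2ac11, H2bc3, H2bc8, H2bc9, H2bc11, H2bc14, H3c6, H4c3, H4c4 and H4c11, of which none was called in RNA. H3c4 had a peak in Wt replicate 2 alone, at 4.36. RNA calls fell on starts with and without a Wt peak. Of the 19 genes with peaks in both Wt libraries and none in DKO, 5 had a lower call and 1 a higher call by the authors' deposited table, where 21.3% and 15.9% of all 3962 genes with that pattern did. Of the 14 with no peak in any library, 3 had a lower call and 1 a higher call by the authors' deposited table, where 24.5% and 13.7% of all 1865 such genes did. The shares of lower calls lay near these backgrounds.

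**Figure D4:**
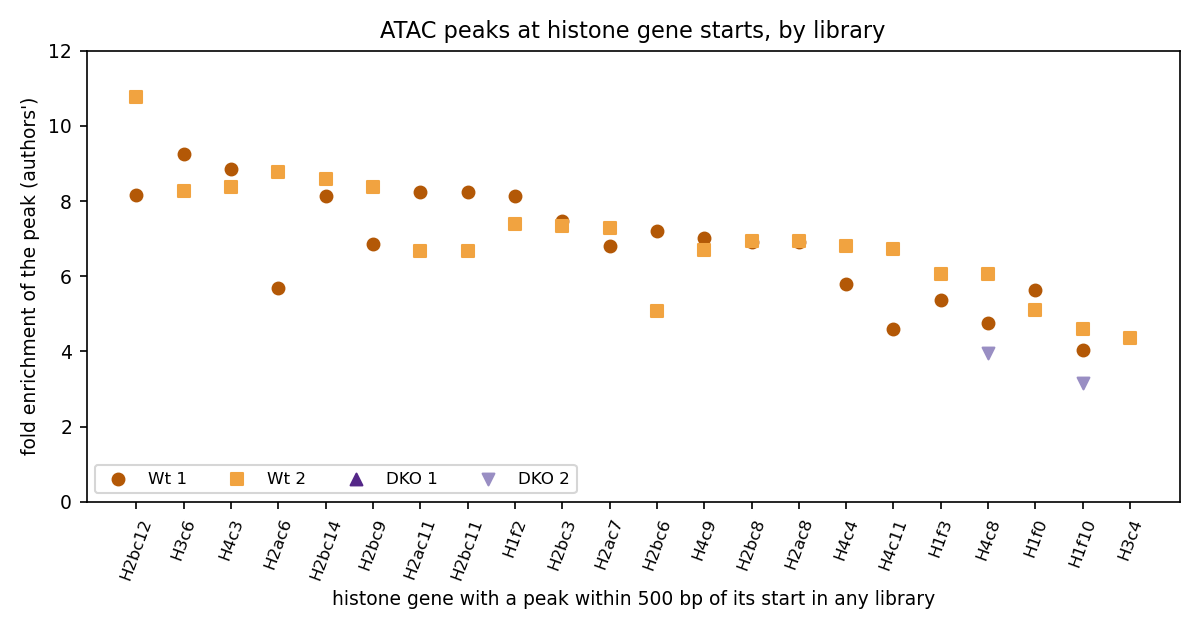
Fold enrichment of the ATAC peak (authors' value) at the start of each of the 22 histone genes with a peak within 500 bp in any library, ordered by the higher Wt value; a missing symbol means no listed peak. Wt values lie between 4.03 and 10.78, DKO replicate 1 has no symbol, and DKO replicate 2 has 2, at H4c8 and H1f10.

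The 14 starts without any peak (38.9% of the members, against 15.8% of all genes) held all 4 starts of the chromosome 3 cluster, among them H2ac18, which has a high count. Of the 14, 7 share a run of at least 40 bases with the promoter window of another gene, against 2 of the 22 starts with a peak. Such shares were not counted over all genes. These 7 were H2ac18, H2ac19, H2ac24, H2bc24, H3c15, H4c17 and H4c18, and H2bc24 was identical to H2bc23 over all 300 bases. The 7 are not separate: H2ac18 with H2ac19 and H4c17 with H4c18 match each other, and H2ac24 and H2bc24 both match H2bc23. Reads from such copies have no single best place in the genome; whether the authors' peak lists left them out was not tested.

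Cdx2 peaks were as rare near these starts as near those of other genes. Of the 36 members, 0 had a Cdx2 peak within 500 bp, against 2.85% of all genes. Within 5000 bp, 3 had one (8.33%, against 6.84% of all genes). For 36 starts, both counts lie near the background. Those 3 were H4c11, 703 bp from its start with a fold enrichment of 4.70, H2ac15 at 3333 bp with 4.72, and H2ac6 at 3381 bp with 4.05, below the median of 5.57 over all Cdx2 peaks. The last of these, chr13:23687340-23687650, lay inside the span of H2bc4, the member with the smallest p. An ATAC peak of 3.85-fold overlapped it in Wt replicate 2 and none in the other ATAC libraries. The ChIP library has no replicate.

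In sequence, the members' promoters differed by family. Over the 250 bases upstream of the start, CCAAT on either strand was present in 28 of 36 members (77.8%) against 39.96% of all genes, in 10 of 10 H2A and 10 of 10 H2B genes but in only 2 of 7 H4 genes. TATAAA was in 16 members (44.4%) against 9.07% of all genes. ATTTGCAT, known from H2B promoters, was in 6 of 10 H2B and 4 of 10 H2A genes, among them the divergent pairs H2ac1 with H2bc1 and H2ac8 with H2bc8, and in 0 H1, H3 or H4 genes, against 1.68% of all. The Cdx-type letters, TTTAT followed by G or T and then by A or G, were in 3 members (8.33%) against 9.55% of all genes, and in 0 of the 10 lower members with a promoter entry. CCAAT was in 6 of those 10 and in 21 of the 24 members without a call. The upstream windows of a divergent pair overlap, so the same match can count for both of its genes, and such promoters are not separate.

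Of the genes that transcribe and process histone mRNA, the authors' deposited table called 8 of 26 genes higher and 2 lower, where 18.5% and 18.3% of all genes were, with a median log2 fold change of 0.16. Slbp, which binds the stem loop, was not called, with -0.07 (standard error 0.24, adjusted p = 0.859) in the authors' deposited table. In the authors' deposited table, higher values were held by Tut7, a uridyltransferase that acts on histone mRNA, at 1.09 (standard error 0.21), and Cstf2, of the cleavage machinery, at 1.06 (standard error 0.28). The CCAAT-box subunit Nfyb was higher at 1.20 (standard error 0.29) and the octamer factor Pou2f1 at 1.97 (standard error 0.28), also from the authors' deposited table. The other NF-Y subunits, Nfya and Nfyc, were not called, with -0.28 (standard error 0.30, adjusted p = 0.467) and -0.05 (standard error 0.23, adjusted p = 0.886) in the authors' deposited table. Sympk, a scaffold of the cleavage complex, was lower, with the authors' deposited table giving -0.87 (standard error 0.28). Npat, Hinfp and Lsm10 were chosen after their values were seen. Npat, the coactivator of the clusters, was higher at 1.36 (standard error 0.31), as was Hinfp, an H4 promoter factor, with 1.25 (standard error 0.32), both from the authors' deposited table. Lsm10, of the U7 particle that processes histone mRNA ends, was lower, and the authors' deposited table put it at -1.15 (standard error 0.44).

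For histone chaperones and assembly factors, the authors' deposited table called 7 of 22 genes higher and 1 lower, against the same 18.5% and 18.3% of all genes, with a median of 0.17 on the log2 scale. The higher genes with the highest counts were Rbbp7, a histone-binding subunit of several chromatin complexes, at 1.89 (standard error 0.18), Hjurp, the chaperone of the centromeric H3, with 0.81 (standard error 0.20), and Nap1l1, an H2A and H2B chaperone, with 0.84 (standard error 0.21), from the authors' deposited table. Anp32e, which removes the variant H2A.Z, followed at 1.40 (standard error 0.24) and Atrx, a remodeller of the H3.3 pathway, with 1.29 (standard error 0.28), from the authors' deposited table. The lower gene was Tonsl, a reader of newly made H4, which the authors' deposited table put at -1.13 (standard error 0.38). For replication-independent histones and variants, the authors' deposited table called 2 of 12 genes higher and 2 lower, shares near those of all genes, with a median of -0.50. H3f3b, which encodes the replacement histone H3.3, was higher at 1.06 (standard error 0.22) and the H2A.Z gene H2az1 with 0.51 (standard error 0.19), from the authors' deposited table. H2az2, the other H2A.Z gene, was lower at -0.61 (standard error 0.22) and H2aw with -1.75 (standard error 0.37), from the authors' deposited table. Whether H2aw, H2bu2 and H4f16, also placed in this list, are replication-independent was not tested. The calls and median of the list therefore need not describe replication-independent genes alone.

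S phase genes, active when clustered histone genes are, had a median log2 fold change of 0.06, and the authors' deposited table called 3 of 28 genes higher and 2 lower, where 18.5% and 18.3% of all genes were. Tk1 and Rrm2, of nucleotide supply, and Gins2, of origin firing, were higher at 0.61 (standard error 0.22), 0.96 (standard error 0.41) and 0.82 (standard error 0.38) by the authors' deposited table. The ligase Lig1 and the polymerase subunit Pold1 were lower at -0.59 (standard error 0.26) and -1.27 (standard error 0.28) by the authors' deposited table. Gins2 and Lig1 lay just inside the threshold there, with an adjusted p of 0.0489 and 0.0490. The replication clamp Pcna was not called, with 0.18 (standard error 0.24, adjusted p = 0.603) in the authors' deposited table. Markers of the sampled tissue were abundant, with all 10 colon epithelial markers at means of 11757 to 159960 normalized counts, of which 3 were lower and 2 higher by the authors' deposited table. Markers of some other cells moved with the groups in the authors' deposited table. All 15 stromal, muscle and endothelial genes were lower (median -5.27, means 44.7 to 2461), as were 6 of 8 B and plasma cell genes (median -2.28). The T cell and leukocyte list did not move as a whole, with 2 of 9 genes higher and 7 not called (median 0.27). The myeloid list was mixed, with 3 of 7 genes higher, 1 lower and 3 not called (median 0.56). None of these markers was missing from the table. Their part in the lower histone counts was not tested.

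**Figure D5:**
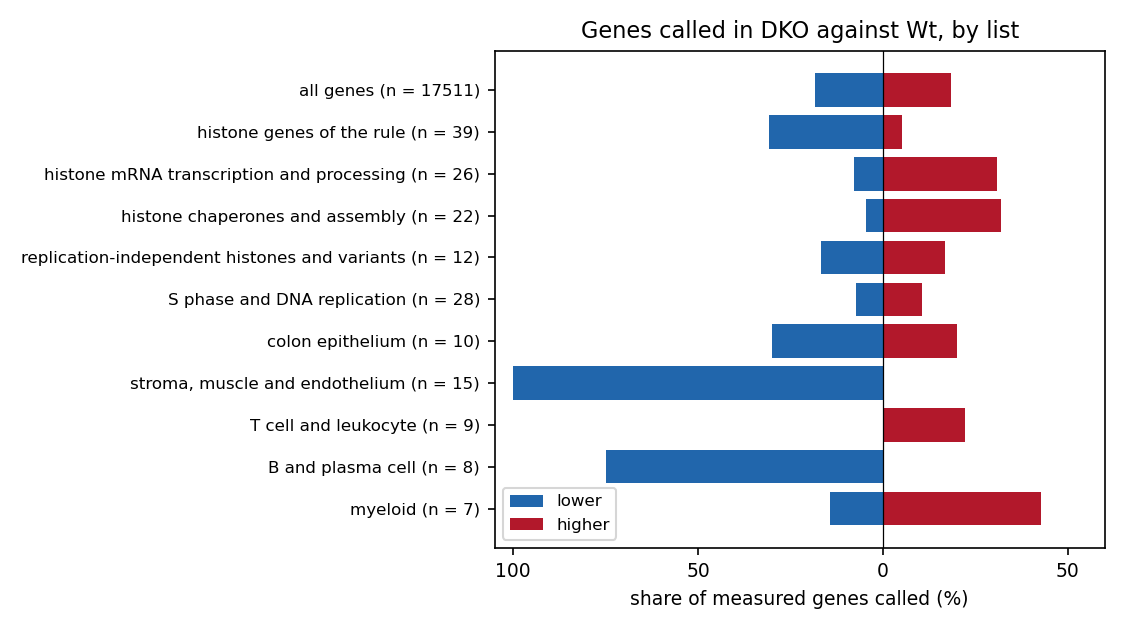
Share of measured genes called lower (left, blue) or higher (right, red) in DKO against Wt in the authors' deposited table, for all genes, the histone genes, 4 lists of related genes and 5 lists of cell markers, with the number of genes measured. The histone bar leans left, while the processing and chaperone lists lean right.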

How the data were processed

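RNA-seq was measured in 2 DKO and 2 Wt libraries, ATAC-seq in 2 and 2, and Cdx2 ChIP-seq in 1. The submitters' processing notes name Salmon 1.3.0, DESeq2, fastp, BWA, Bowtie2 and MACS2 with builds mm10 and GRCm38, and give no role to any. Estimated counts per transcript were made by the authors and served here only for library totals, per the file headers. The gene table's mean normalized count is a signal made by the authors, its log2 fold changes are DKO over Wt, and its p-values were adjusted by the authors by Benjamini-Hochberg, which the values return within 1e-09 for all 17511 genes. Fold over SE returns the deposited p within 0.01 on the log10 scale for only 1751 genes, so the folds and p-values may not come from 1 estimate, and group levels implied by mean and fold are approximate. Peak fold enrichment (a ratio), -log10 p and q, and the score are the authors' values per peak, called per library, per the file headers. No source used here gives the ChIP control or the ATAC read shift.

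The planned edgeR test per gene could not be run, since nothing used here pairs transcript IDs with genes. Peaks were joined to RefSeq starts (GRCm38.p6, the same assembly as mm10) by Entrez ID, for 36 of 39 members and 11809 genes, with an overlap of at least 1 bp. Python 3.11.15, numpy 2.4.6, pandas 2.3.3 and scipy 1.17.1 were used, and the overlap and adjustment code was tested on simulated data. Members and lists were chosen with earlier results of these data known. Named in full were called members, up to 4 per family and direction, the member with the highest count per family, members with a group-specific ATAC pattern, and up to 5 called genes per list, highest mean first. Alternatives changed the p threshold, the minimum mean, the fold, the members, the peak window, the q threshold, the overlap and the ATAC libraries.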

Additional observations from a re-analysis of the deposited data

How the results depend on the processing

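The 12 lower histone genes became 9 to 12 under the 5 other thresholds and member sets, and 11 without H2ac18 and H2ac19, and the median log2 fold change stayed between -0.98 and -0.71. The 2 higher genes became 1 at an adjusted p under 0.01, where H1f0 is lost, 1 at a change of at least 2-fold, 1 over clustered members and 1 without H2ac18 and H2ac19, the last chosen after seeing the data. Histone starts with an ATAC peak in DKO replicate 1 went from 0 to 1 with a window of 2000 bp, where 31.7% of all genes had a peak. Those in DKO replicate 2 went from 2 to 1 with a window of 100 bp, where 34.0% of all genes had a peak. They went to 0 at a -log10 q of at least 5, where 16.5% of all genes kept a peak. Over the lists that leave out 1 ATAC library, starts open in Wt and not in DKO numbered 19 to 21, and the reverse stayed at 0. Cdx2 peaks went from 0 within 500 bp to 3 within 5000 bp. No paired analysis was possible because gene values come from the authors' table, with no value per library, and the peak counts come from no test. For the same reason the gene-level alternatives (size factors, low-count filter, left-out RNA libraries) were not run. Depth per RNA gene and library, and the depth of the ATAC lists, limit what can be said of the rarer members.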

Other observations

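Of the 68 RefSeq genes whose symbols fit the rule, measured or not, 2 had a Cdx2 peak within their span. The share over all gene spans was not counted, so these 2 are not set against a background. One of them was H2bc4, described above, whose span is 8282 bp. The other was H4c12 (chr13:21750145-21750553), an H4 gene not analysed here for RNA, with a Cdx2 peak at chr13:21750308-21750579 of 4.72-fold enrichment. It is the same peak that was counted above for H2ac15. This peak overlapped ATAC peaks of 9.22 and 9.71-fold enrichment in Wt replicates 1 and 2, and none in the DKO libraries.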
